A study of Mus musculus with 9 samples.

Results

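The CDK inhibitors are 7 genes, Cdkn1a, Cdkn1b, Cdkn1c, Cdkn2a, Cdkn2b, Cdkn2c and Cdkn2d, taken by name from the 35024 gene rows measured in hepatic stellate cells, the liver pericytes that store vitamin A. The rule was their names, with no measured value in it, and all 7 were among the 17203 genes tested. The YAP-deleted group held 4 bulk RNA sequencing libraries (LYT006, LYT008, LYT013 and LYT016) from mice labelled YAP floxed with LratCre. The control group held 5 (LYT004, LYT005, LYT014, LYT015 and LYT017) from mice labelled YAP floxed, with no Cre named. Every mouse was on a C57BL/6J background and received carbon tetrachloride (CCl4, a liver toxin) by 6 intraperitoneal injections of 0.5 mg/kg in corn oil, 1 every 3 days. Stellate cells were taken 2 days after the last injection by density centrifugation and sorting on retinoid autofluorescence, and were lysed directly after the sort. The Cre is driven by the promoter of Lrat, the retinol esterifying enzyme of stellate cells. No control library is labelled as carrying it, so the effects of Cre and of Yap1 loss cannot be told apart. Whether the libraries came from separate mice is not stated in the labels, and the p-values therefore measure the spread between these libraries, which may be partly technical.

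CDK inhibitors are small proteins that hold back the cyclin-dependent kinases, the enzymes that drive the cell cycle. The Cip/Kip branch (p21, p27 and p57, encoded by Cdkn1a, Cdkn1b and Cdkn1c) binds cyclin and CDK complexes broadly, whereas the INK4 branch (encoded by Cdkn2a, Cdkn2b, Cdkn2c and Cdkn2d) binds CDK4 and CDK6 and keeps them from the D cyclins. In the injured liver stellate cells leave quiescence and divide, and p21 and p16Ink4a are widely used as markers of those that have stopped dividing.

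The depth behind these values ran from 14052502 counts (control LYT017) to 31816055 counts (the library labelled YAP-deleted LYT013). All 12 stellate cell markers were above 0 in every library, with a sum of 999736 to 1251840 normalised counts where the label was YAP-deleted and 1031460 to 1217970 where it was control. A normalised count is a read count, recovered from the deposited values, divided by the size factor of its library. Yap1 went against the label in 2 libraries. The libraries labelled YAP-deleted had 642 (LYT006), 648 (LYT008), 2529.8 (LYT013) and 645 (LYT016) normalised Yap1 counts. The libraries labelled control had 2902 (LYT004), 2915 (LYT005), 618 (LYT014), 3653 (LYT015) and 3551 (LYT017). LYT013 and LYT014 are therefore shown apart, and the group differences are given for the 9 libraries as labelled and for the 7 without them. In bulk RNA, fewer cells of a type and less RNA per cell cannot be told apart.

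No CDK inhibitor passed the threshold for a difference between the libraries labelled YAP-deleted and those labelled control, and the groups overlapped for all 7 genes, with 9 libraries and with 7. Over the 9 libraries limma called 0% of the tested genes (0 of 17203) at an adjusted p under 0.05, and 1242 genes (7.22%) had an unadjusted p under 0.05. Voom, limma's model for read counts, also called 0, with 1319 genes at an unadjusted p under 0.05. The groups were without overlap for 2.84% of the genes tested. Over the 7 libraries limma called 12 genes (0.0698%), 3 of them (0.0174%) higher where Yap1 was deleted and 9 (0.0523%) lower, 6.29% had an unadjusted p under 0.05, and 7.32% were without overlap. The count of 12 fell to 2 without YAP-deleted LYT006, to 6 without control LYT004 or LYT017 and to 7 by voom, and was 35 with Mki67 as covariate. What did vary was the level of the CDK inhibitors from library to library inside each group, and the members were high in different libraries.

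**Figure D1:**
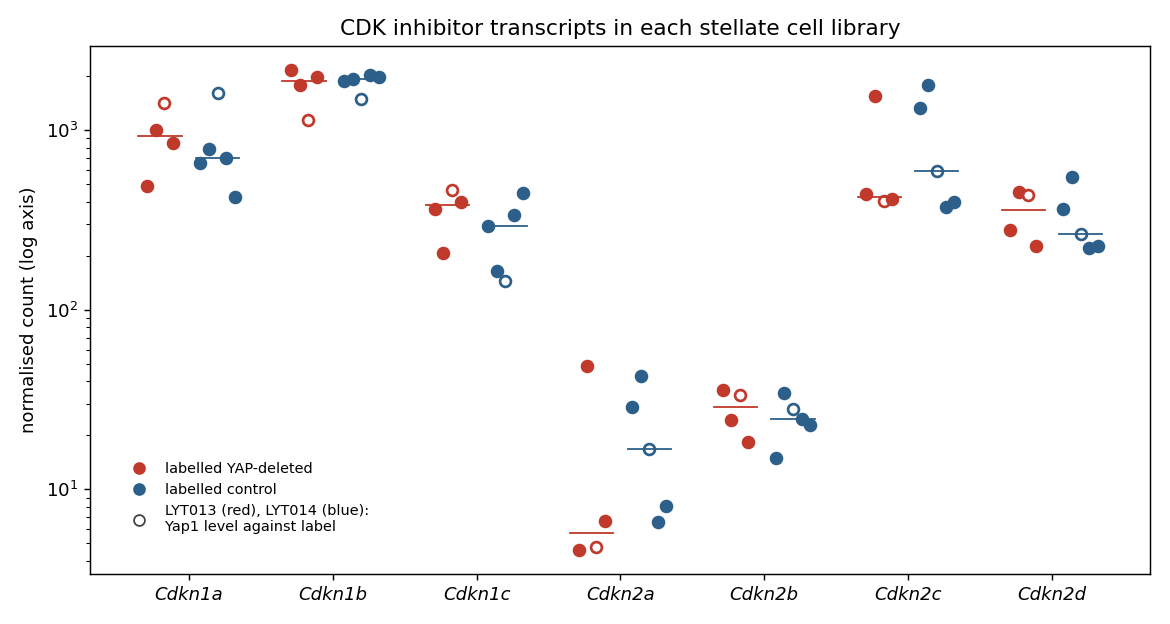
Normalised counts (log axis) of the 7 CDK inhibitors in each library, with the libraries labelled YAP-deleted in red, those labelled control in blue, and horizontal bars at the group medians. Open points are LYT013 (red) and LYT014 (blue), whose Yap1 level goes against the label, and the red and blue points overlap for every gene.

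Cdkn1a (chromosome 17, 29090976 to 29100727, plus strand, GRCm38) encodes p21, a target gene of p53 that arrests cells in G1 phase. It had 487 (LYT006), 1000.1 (LYT008), 1422 (LYT013) and 848 (LYT016) normalised counts in libraries labelled YAP-deleted. In the libraries labelled control it had 659 (LYT004), 781 (LYT005), 1611 (LYT014), 695 (LYT015) and 423 (LYT017). Its highest levels were those of LYT014 and LYT013, 1 in each group, and the remaining libraries of the groups overlapped. The means were 939 ± 387 in the libraries labelled YAP-deleted (SD, n = 4) and 834 ± 454 in those labelled control (SD, n = 5). The difference was 0.20 ± 0.35 on the deposited log2-like scale (SE, 95% interval −0.56 to 0.96, limma adjusted p = 0.851). Without LYT013 and LYT014 it was 0.24 ± 0.25 (interval −0.34 to 0.81, limma adjusted p = 0.932).

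Cdkn1b (chromosome 6, 134920401 to 134925513, plus strand) encodes p27, which holds resting cells out of the cycle and is controlled largely through the breakdown of its protein. It was the steadiest Cip/Kip gene. It had 2165, 1788, 1137 and 1977 normalised counts in LYT006, LYT008, LYT013 and LYT016 of the group labelled YAP-deleted. The control libraries LYT004, LYT005, LYT014, LYT015 and LYT017 had 1877, 1937, 1492, 2038 and 1969. Here LYT013 and LYT014 were the lowest libraries of their groups and of all 9, the opposite end from their place for Cdkn1a. The difference was −0.10 ± 0.17 (SE, interval −0.49 to 0.28, limma adjusted p = 0.844). Without them Cdkn1b averaged 1977 ± 188 in 3 YAP-deleted libraries (SD) and 1955 ± 67.3 in 4 control libraries (SD). That difference, 0.01 ± 0.09 (SE), had the narrowest interval of the 7 genes, from −0.18 to 0.21 (limma adjusted p = 0.985), or 0.880 to 1.15 as a ratio.

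Cdkn1c (chromosome 7, 143458339 to 143461050, minus strand) encodes p57, the imprinted member of the branch, expressed from the maternal allele. It had 364 (LYT006), 208 (LYT008), 466 (LYT013) and 399.6 (LYT016) normalised counts in libraries labelled YAP-deleted. In the libraries labelled control it had 293 (LYT004), 164 (LYT005), 144 (LYT014), 337 (LYT015) and 445 (LYT017). Each group held libraries at both ends of the range, and the lowest 4 of the 9 were LYT014, LYT005, LYT008 and LYT004. The difference was 0.36 ± 0.29 (SE, interval −0.27 to 0.99), the largest of the 7 genes in the 9 libraries and not past the threshold (limma adjusted p = 0.687). Without LYT013 and LYT014 it was 0.08 ± 0.29 (interval −0.58 to 0.73, limma adjusted p = 0.979). Cdkn1a and Cdkn1c each overlap 1 annotated gene on the opposite strand, and nothing in the labels says that reads were counted by strand.

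The INK4 genes Cdkn2a, Cdkn2c and Cdkn2d were high in nearly the same libraries, so the sequences at their starts are shown. They come from RefSeq on GRCm38.p6, run from 250 bases before to 50 after the start, and are written along the gene's strand. Capitals mark matches, on either strand and with no overlap between them, to the E2F motif TTTNNCGC (in 5.17% of 32851 mouse promoter windows of this length) and the CCAAT box (in 37.4%). Cdkn2a is 1 row in the file for a locus with 2 starts. The start at the lower coordinates opens the transcript of p16Ink4a, and the start at the higher ones opens that of p19Arf, which restrains Mdm2 and not a CDK.
Cdkn2a at the p16Ink4a start, chr4:89282143-89282442, minus strand: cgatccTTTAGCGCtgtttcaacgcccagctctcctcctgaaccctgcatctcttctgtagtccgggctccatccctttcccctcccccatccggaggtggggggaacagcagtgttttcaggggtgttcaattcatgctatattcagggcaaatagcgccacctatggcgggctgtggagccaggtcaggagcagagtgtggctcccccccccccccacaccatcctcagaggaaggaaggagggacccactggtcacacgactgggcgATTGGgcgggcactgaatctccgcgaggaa
Cdkn2a at the p19Arf start, chr4:89294570-89294869, minus strand: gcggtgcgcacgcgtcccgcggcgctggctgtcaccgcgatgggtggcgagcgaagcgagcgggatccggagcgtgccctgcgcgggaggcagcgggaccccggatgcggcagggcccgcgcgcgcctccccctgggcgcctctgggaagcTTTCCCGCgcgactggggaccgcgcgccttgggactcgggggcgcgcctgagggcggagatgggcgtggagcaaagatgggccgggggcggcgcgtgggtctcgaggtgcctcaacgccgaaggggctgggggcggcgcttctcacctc
Cdkn2c, chr4:109665323-109665622, minus strand: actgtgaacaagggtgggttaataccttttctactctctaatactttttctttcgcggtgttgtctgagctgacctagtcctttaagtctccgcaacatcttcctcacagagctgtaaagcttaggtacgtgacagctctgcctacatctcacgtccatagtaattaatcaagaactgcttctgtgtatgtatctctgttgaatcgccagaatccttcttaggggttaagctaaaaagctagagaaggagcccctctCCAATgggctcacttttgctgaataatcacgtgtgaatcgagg
Cdkn2d, chr9:21291160-21291459, minus strand: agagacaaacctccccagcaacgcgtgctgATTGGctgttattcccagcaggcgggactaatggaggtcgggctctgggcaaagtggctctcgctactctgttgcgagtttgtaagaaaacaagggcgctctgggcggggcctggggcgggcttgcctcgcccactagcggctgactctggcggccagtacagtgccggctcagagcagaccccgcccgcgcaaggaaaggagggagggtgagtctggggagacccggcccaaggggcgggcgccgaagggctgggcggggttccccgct

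Both Cdkn2a starts held 1 E2F match, at −244 and −99 from the start, and neither the Cdkn2c nor the Cdkn2d window held any. Positions are distances from the start base to the first base of a match, negative before the start. Cdkn2c held a CCAAT box at 7, Cdkn2d at −220 and the p16Ink4a start at 20. The second Cdkn2c start (chr4:109666707-109667006) matched none of the motifs searched. The CHR element TTTGAA, found in many genes of late cell cycle phases and in 17.9% of the windows, had 2 matches in the Mki67 window, 1 in that of Cdkn2b and none in those of Cdkn2a, Cdkn2c, Cdkn2d, Cdkn1a and Cdkn1b. Its variant TTCGAA (in 1.56% of windows) was in none of them. Cdkn1b held 3 CCAAT boxes and the windows at the 2 Cdkn1a starts held no match. A match is only the presence of these letters and was not tested for binding. No start of Cdkn1c is shown.

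Cdkn2c (chromosome 4, 109660876 to 109667189, minus strand) encodes p18Ink4c and varied most among the abundant members. In the libraries labelled YAP-deleted it had 439 (LYT006), 1549 (LYT008), 401 (LYT013) and 411 (LYT016) normalised counts. In those labelled control it had 1327 (LYT004), 1787 (LYT005), 591 (LYT014), 375 (LYT015) and 398 (LYT017). The highest 3 libraries, from 1327 upwards, came from both groups, 1 YAP-deleted and 2 control, and the other 6 lay between 375 and 591. The means were 700.1 ± 566 (SD, n = 4) in the libraries labelled YAP-deleted and 896 ± 631 (SD, n = 5) in those labelled control. With a difference of −0.31 ± 0.50 (SE, interval −1.41 to 0.79, limma adjusted p = 0.836), a change of over 2-fold in either direction was inside the interval with 7 libraries, which ran from −1.63 to 1.18 around −0.22 ± 0.62 (limma adjusted p = 0.974). Among library codes 4 to 8, where every Yap1 level followed the label, the Cdkn2c difference was −0.84 ± 0.53, and among codes 13 to 17 it was −0.12. It was −0.75 without YAP-deleted LYT008 and −0.011 without control LYT005.

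Cdkn2d (chromosome 9, 21288410 to 21291407, minus strand) encodes p19Ink4d, which is known to peak in S and G2 phase. It had 278, 450.3, 437 and 227 normalised counts in LYT006, LYT008, LYT013 and LYT016 of the group labelled YAP-deleted, against 362, 551, 265, 221 and 226 in control LYT004, LYT005, LYT014, LYT015 and LYT017. Its highest 4 libraries were LYT005, LYT008, LYT013 and LYT004, so that LYT013, low for Cdkn2c, was high here. The difference was 0.11 ± 0.26 (SE, interval −0.46 to 0.67, limma adjusted p = 0.897), and −0.05 ± 0.30 without LYT013 and LYT014 (interval −0.73 to 0.64, limma adjusted p = 0.985).

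Cdkn2a (chromosome 4, 89274471 to 89294653, minus strand), whose p16Ink4a and p19Arf products the file does not separate, rested on few reads. The libraries labelled YAP-deleted held 4 (LYT006), 38 (LYT008), 8 (LYT013) and 8 (LYT016) reads, or 4.61, 48.5, 4.79 and 6.67 normalised counts. The libraries labelled control held 27 (LYT004), 35 (LYT005), 21 (LYT014), 7 (LYT015) and 6 (LYT017) reads, or 28.8, 42.9, 16.9, 6.60 and 8.06 normalised counts. The exact 95% Poisson interval of YAP-deleted LYT008, 34.3 to 66.5 normalised counts, lay above those of the other libraries labelled YAP-deleted, of which the highest reached 13.2, and overlapped those of control LYT004 and LYT005. These intervals cover counting error only. The difference was −0.21 ± 0.27 (SE, interval −0.80 to 0.39, limma adjusted p = 0.795) in the 9 libraries and −0.11 ± 0.33 (interval −0.86 to 0.64, limma adjusted p = 0.976) in the 7. Without YAP-deleted LYT008 the difference in the remaining 8 was −0.48 (unadjusted p = 0.0447, limma adjusted p = 0.579). The log2-like scale understates changes at so low a level.

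Cdkn2b (chromosome 4, 89306299 to 89311039, minus strand), 11.64 kb from Cdkn2a, encodes p15Ink4b, a target of TGF-beta signalling in epithelial cells. It was low in every library, and 2 of its highest 4 libraries, LYT005 and LYT014, were also among the highest 4 for its neighbour Cdkn2a. It had 35.8, 24.2, 33.5 and 18.4 normalised counts in LYT006, LYT008, LYT013 and LYT016 of the group labelled YAP-deleted. Control LYT004, LYT005, LYT014, LYT015 and LYT017 had 14.9, 34.3, 28.1, 24.5 and 22.8. The highest library for Cdkn2b, LYT006, was the lowest for Cdkn2a, and control LYT004, ranked 3 of 9 for Cdkn2a, was the lowest for Cdkn2b. The difference was 0.07 ± 0.13 (SE, interval −0.22 to 0.36, limma adjusted p = 0.867), and 0.05 ± 0.15 in the 7 libraries (limma adjusted p = 0.978). Of 5 annotated neighbours of this locus 1 was tested, the methylthioadenosine phosphorylase gene Mtap, at 0.11 ± 0.11 in the 9 libraries and −0.0045 ± 0.09 in the 7.

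**Figure D2:**
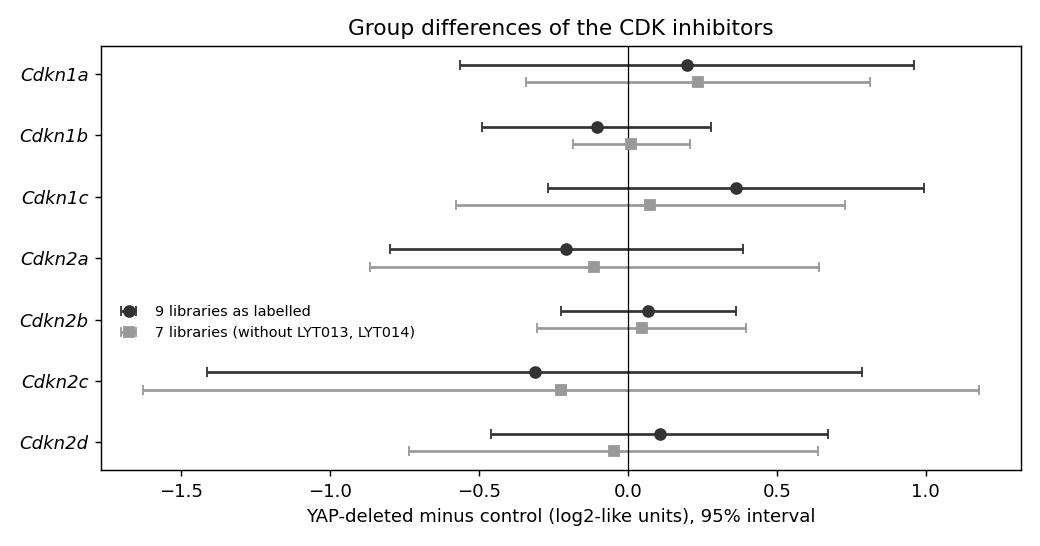
Difference of each CDK inhibitor, YAP-deleted minus control, on the deposited log2-like scale with 95% limma intervals, for the 9 libraries as labelled (dark circles) and for the 7 libraries without LYT013 and LYT014 (grey squares). Every interval spans 0, from the widest for Cdkn2c (−1.63 to 1.18 with 7 libraries) to the narrowest for Cdkn1b (−0.18 to 0.21).

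The exact two-sided permutation test of each group difference gave p = 0.286 for Cdkn1c, 0.476 for Cdkn2a, 0.587 for Cdkn2b, 0.603 for Cdkn2c, 0.635 for Cdkn1a, 0.667 for Cdkn1b and 0.698 for Cdkn2d over the 126 regroupings of the 9 libraries. Over the 35 regroupings of the 7 libraries the exact p ran from 0.514 for Cdkn1a to 1 for Cdkn2c and Cdkn2d, and the smallest p that so few libraries allow is 0.0571. As a group the 7 genes had 4 positive and 3 negative differences with 9 libraries (median 0.07, against −0.0045 over all 17203 genes) and the same split with 7 (median 0.01, against −0.0059).

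Set beside Mki67, the proliferation antigen of cycling cells, the members fell into different orders. Mki67 had 160.3 (LYT006), 3643 (LYT008), 68.2 (LYT013) and 122 (LYT016) normalised counts in libraries labelled YAP-deleted. It had 4991 (LYT004), 6434 (LYT005), 1351 (LYT014), 219 (LYT015) and 121 (LYT017) in those labelled control. The values formed separate clusters, with the largest gap between 8.12 and 10.46 on the log2-like scale (40.99% of the range), so no correlation with Mki67 is given, and neither cluster holds enough libraries for one. The 4 libraries above the gap were LYT005, LYT004, LYT008 and LYT014. Of the libraries with codes 4 to 8 only LYT006 lay below the gap, and of those with codes 13 to 17 only LYT014 lay above it. A pattern by Mki67 and a pattern by library code can therefore hardly be told apart here.

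Those 4 libraries were also the highest 4 of the 9 for Cdkn2c and for Cdkn2a. For Cdkn2c they ran from 591 to 1787 normalised counts, and the other 5 from 375 to 439. For Cdkn2a they ran from 16.9 to 48.5, and the other 5 from 4.61 to 8.06. How many of the 17203 genes tested split the libraries in the same way was not counted. The order is therefore not known to be particular to CDK inhibitors. Some sums of other cell markers also moved with part of this order. The 8 portal fibroblast and mesothelium markers summed to 8177 normalised counts in YAP-deleted LYT008 and to 8203 and 7606 in control LYT004 and LYT005, the highest of the 9, but to 5572.5 in control LYT014, below YAP-deleted LYT006 at 7239. The remaining libraries had 3286 and 4574 (LYT013 and LYT016, labelled YAP-deleted) and 4235 and 3296 (control LYT015 and LYT017). Most of this sum was Eln, at 2678 to 6686 over the 9 libraries. Msln and Upk3b of the same list did not follow it. Both were highest in control LYT017 (34.9 and 32.2) and next in YAP-deleted LYT016 (9.18 and 16.7). The macrophage and Kupffer cell sum was 1051 in LYT008 and 1036 and 716 in LYT004 and LYT005, against 1104 to 2600 in the other libraries labelled YAP-deleted and 1566 to 1929 in the other controls. The part of these markers in the levels of Cdkn2c and Cdkn2a was not tested. In the opposite direction, the same 4 libraries were the lowest for Cdkn1c, at 144 to 293 against 337 to 466. For Cdkn2d the order broke at the libraries shown apart: LYT013, with the lowest Mki67, ranked 3 of 9, and LYT014 ranked 6. Cdkn1a and Cdkn2b had 2 of the 4 libraries among their own highest 4. Cdkn1b had none there and 3 of them among its lowest 4, below which only LYT013 lay. With the Mki67 level of each library as a covariate, the group difference of Cdkn2c in the 9 libraries was 0.34 ± 0.15 (SE, unadjusted p = 0.0487, limma adjusted p = 0.688), of the opposite sign to that without it. That fit lays a single straight slope across the gap in Mki67. Above the gap LYT008 was the only library labelled YAP-deleted, so the fit cannot decide the sign.

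**Figure D3:**
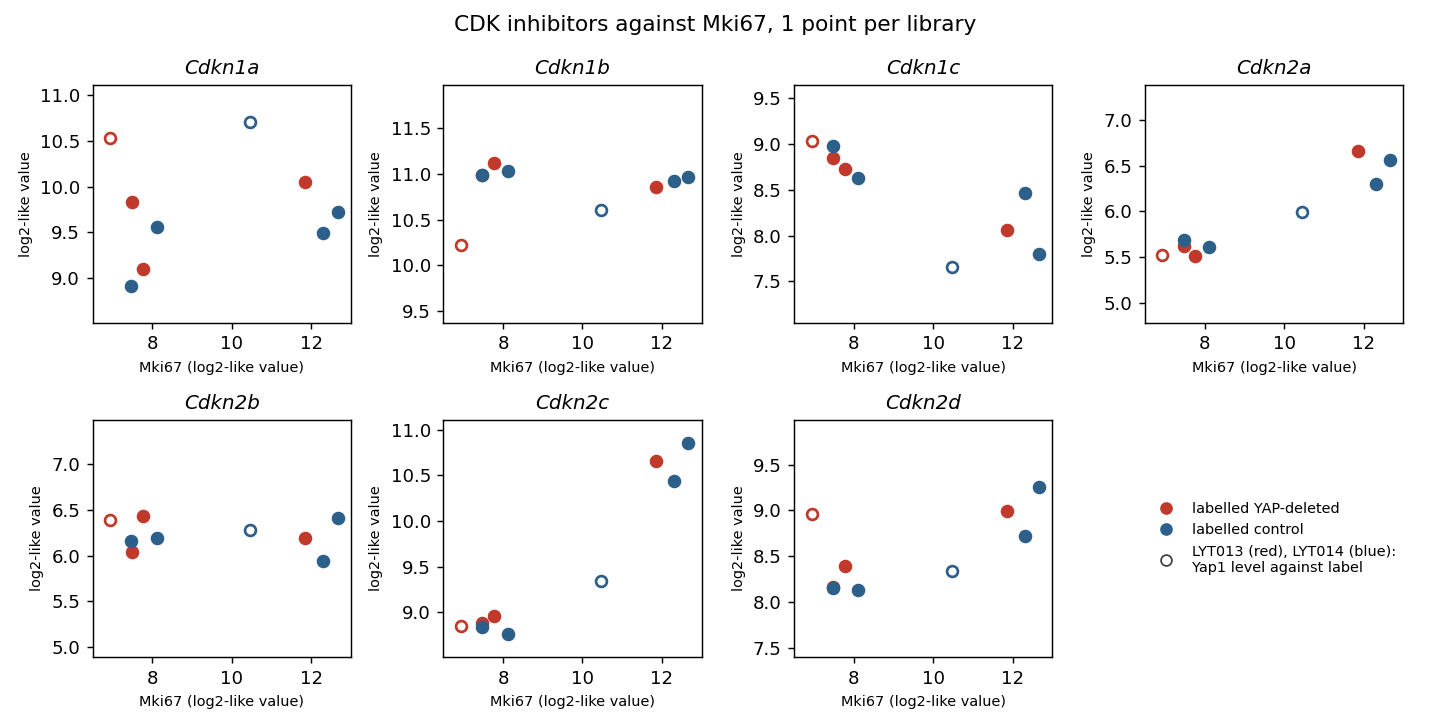
Deposited log2-like value of each CDK inhibitor (vertical axes, each spanning the same number of units) against that of Mki67 (horizontal axes), 1 point per library, with libraries labelled YAP-deleted in red, those labelled control in blue, and LYT013 and LYT014 as open points. Cdkn2c and Cdkn2a are highest, and Cdkn1c lowest, in the 4 libraries with Mki67 of 10.46 or more, which hold 1 library labelled YAP-deleted and 3 labelled control.

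Over the 9 libraries without regard to group, the spread of the members was set against that of all genes tested, whose median SD was 0.22 on the log2-like scale. Cdkn2c had an SD of 0.88, above that of 98.6% of the genes, and its highest library had 4.76 times the normalised counts of its lowest. Cdkn1a (SD 0.60), Cdkn1c (0.51), Cdkn2a (0.46) and Cdkn2d (0.43) lay above 96.4%, 94.7%, 92.6% and 90.8% of the genes. Cdkn1b, at 0.28, and Cdkn2b, at 0.17, lay above 70.6% and 28.2%. The log2-like scale understates changes at low levels, so the SDs of the scarce Cdkn2a and Cdkn2b are not comparable with the others. By normalised counts, the highest library had 10.5 times the lowest for Cdkn2a, 2.40 times for Cdkn2b and 1.90 times for Cdkn1b. At so few reads the ratios of Cdkn2a and Cdkn2b also hold counting error. Mki67 itself had an SD of 2.35, above 99.98% of the genes.

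Per kilobase of the longest coding transcript, the members split into 5 that were abundant and 2 that were scarce. Cdkn1a averaged 423 ± 194 normalised counts per kb over the 9 libraries (SD) and Cdkn1b 399.8 ± 69.7. Cdkn2c followed at 327 ± 232, Cdkn2d at 236 ± 84.5 and Cdkn1c at 165 ± 62.6. Cdkn2a averaged 20.8 ± 19.2 and Cdkn2b 18.9 ± 5.22. Of the neighbours in this order, only Cdkn1c and Cdkn2a had ranges that did not overlap, with Cdkn1c the higher in 9 of 9 libraries. Cdkn1a exceeded Cdkn1b in 3 of 9 and Cdkn2a exceeded Cdkn2b in 3 of 9. The order of the first 5 depends on the transcript: with the shortest coding transcript Cdkn1b led at 1036 per kb, ahead of Cdkn1a at 955, and Cdkn1c and Cdkn2d were level at 485.2 each.

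The INK4 genes made up 31.0% (LYT006), 50.8% (LYT008), 29.8% (LYT013) and 24.8% (LYT016) of the family's length-scaled transcripts in the libraries labelled YAP-deleted. In those labelled control they made up 48.6% (LYT004), 57.1% (LYT005), 28.3% (LYT014), 25.7% (LYT015) and 28.4% (LYT017). The 3 libraries near or above 50% were those with the most Cdkn2c, which alone was 31.3% to 34.9% of the family there and 9.67% to 14.6% elsewhere. Cdkn1a took the largest share in LYT014 (47.1%) and LYT013 (40.8%), against 16.7% to 29.2% in the others. All of these shares use the longest coding transcripts. They were not computed with the shortest, which change the levels of the members unequally.

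**Figure D4:**
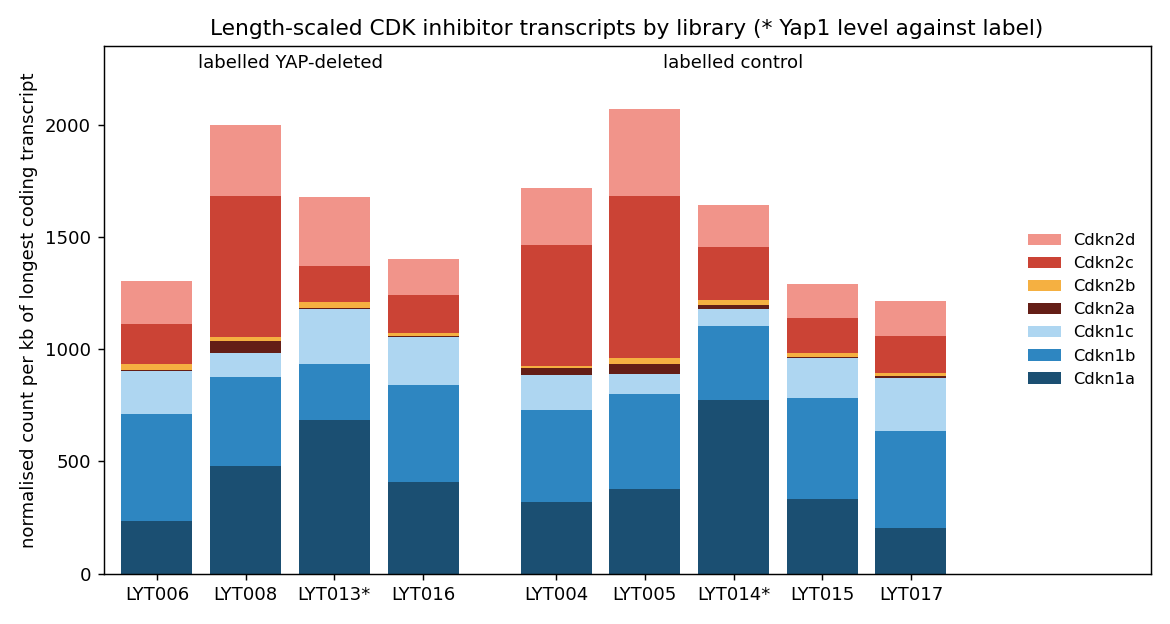
Normalised counts per kb of the longest coding transcript, stacked over the 7 CDK inhibitors for each library, with libraries labelled YAP-deleted on the left and those labelled control on the right (asterisks mark LYT013 and LYT014). The INK4 share (reds and orange) is 50.8%, 48.6% and 57.1% in LYT008, LYT004 and LYT005 and 24.8% to 31.0% in the other libraries.

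The genes whose pattern over the 9 libraries was most like each abundant member, by Pearson's r over 8602 genes at or above the median level, are given as a description, since all values share the libraries and the depth. For Cdkn2c the first 3 were Mad2l1 and Bub1b, components of the spindle checkpoint, and the ubiquitin ligase gene Trim59. Their r is not given, because their values fell into the same clusters as those of Mki67. Bub1b had 1186 normalised counts in YAP-deleted LYT008 and 144 to 209 in the other libraries labelled YAP-deleted, against 1197, 1581 and 388 in control LYT004, LYT005 and LYT014 and 172 and 163 in control LYT015 and LYT017. For Cdkn2d they were the gamma-tubulin gene Tubg1 (r = 0.99), the alpha-tubulin gene Tuba1b (r = 0.98) and the small GTPase gene Arf4 (r = 0.98). Tuba1b had 7680.5 to 14362 normalised counts in libraries labelled YAP-deleted and 7062 to 17456 in those labelled control, with LYT005, LYT013, LYT008 and LYT004 highest. Tubg1 had the same highest libraries. Both genes left a gap below them, from 453 to 544 for Tubg1 and from 8643 to 11930 for Tuba1b. How far their r rests on this gap was not tested.

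For Cdkn1a the most similar genes were Ppp1r10 (r = 0.93), a nuclear regulator of protein phosphatase, Sbno2 (r = 0.89) and the transcription factor gene Klf2 (r = 0.88). Klf2 had 3118, 4057, 10653 and 3977 normalised counts in LYT006, LYT008, LYT013 and LYT016 of the group labelled YAP-deleted, against 3681, 3221, 6844, 4509 and 2023 in control LYT004, LYT005, LYT014, LYT015 and LYT017. Its highest libraries were again LYT013 and LYT014, as were those of Ppp1r10 and Sbno2. The part of those libraries in the r values of Cdkn1a was not tested. For Cdkn1b they were Klhl42 (r = 0.99), Dcaf10 (r = 0.97) and Ift172 (r = 0.96). Like Cdkn1b, all of these were lowest in LYT013 and next lowest in LYT014. How far their r rests on those libraries was not tested. For Cdkn1c they were Klhdc8b, D1Ertd622e and Wdr45, with r of 0.92, 0.92 and 0.91. The number of genes with r above 0.9 was 134 for Cdkn2c, whose values are clustered, 82 for Cdkn2d, 69 for Cdkn1b, 3 for Cdkn1c and 1 for Cdkn1a.

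Of the 11 markers of liver endothelium, 6 were highest in LYT014 (Cdh5, Kdr, Stab2, Stab1, Lyve1 and Oit3) and 5 were not (Pecam1, Clec4g, Tek, Tie1 and Eng). Cdh5 had 198 normalised counts there, against 12.8 to 62.8 in libraries labelled YAP-deleted and 2.45 to 91.3 in the other controls. All 11 endothelial markers were above 0 in every library. Their sum, which was 26384 in LYT014, was 28432 to 32596 in the libraries labelled YAP-deleted and 23147 to 26926 in those labelled control, and most of it was Eng, at 24103 to 30106 in the libraries labelled YAP-deleted and 21344 to 23461 in those labelled control. The 12 macrophage and Kupffer cell markers, all above 0 in every library, summed to 1051 to 2600 normalised counts in libraries labelled YAP-deleted and 716 to 1929 in those labelled control. Hepatocyte markers, at least 9 of 10 above 0, summed to 707 to 1399 in the libraries labelled YAP-deleted and 389 (LYT014) to 1207 in the controls. The 8 vascular smooth muscle markers summed to 34946 to 36823 in the libraries labelled YAP-deleted and 35713 to 40191 in the controls. Cholangiocyte markers (at least 5 of 6 above 0 in the libraries labelled YAP-deleted and at least 3 in the controls) summed to 49.1 to 213 in the libraries labelled YAP-deleted and 48.95 to 158 in the controls. Lymphocyte markers were lowest, with 24.2 to 48.4 in the libraries labelled YAP-deleted and 29.8 to 42.4 in the controls, and the T cell gene Cd3e was at 0 in 8 of 9 libraries. The part of these markers in the levels of Cdkn1a and Cdkn1b in LYT014 was not tested.

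The CDK inhibitors act on the CDKs and cyclins of G1 and S phase, and none of the 10 tested was called in either fit. Of them 3 had positive and 7 negative differences in the 9 libraries (median −0.14) and in the 7 libraries (median −0.10). Cdk6, a kinase bound by the INK4 proteins, differed by −0.19 ± 0.11 (SE) in the 9 libraries and −0.22 ± 0.09 in the 7, and Cdk4, the other, by 0.14 ± 0.16 and −0.01 ± 0.14. Of the D cyclins, Ccnd1 differed by 0.16 ± 0.20 in the 9 and 0.37 ± 0.19 in the 7, Ccnd2 by −0.11 ± 0.16 and 0.08 ± 0.13, and Ccnd3 by 0.25 ± 0.14 and 0.10 ± 0.13. Cdk4 and Ccnd2 thus changed sign between the fits. Ccne1, the cyclin of the step into S phase, differed by −0.30 ± 0.31 in the 9 and −0.41 ± 0.35 in the 7, its kinase Cdk2 by −0.07 ± 0.15 and −0.09 ± 0.18, and the phosphatase Cdc25a by −0.17 ± 0.13 and −0.11 ± 0.11. The limma adjusted p-values of these genes in the 7 libraries ran from 0.762 for Cdk6 to 0.996 for Cdk4.

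Downstream of the kinases stands the RB and E2F family, of which 2 of 13 members had positive and 11 negative differences in the 9 libraries (median −0.27), and 3 and 10 in the 7 libraries (median −0.07). None was called. The pocket proteins Rb1 and Rbl1 differed by −0.30 ± 0.15 and −0.65 ± 0.36 (SE) in the 9 libraries and by −0.17 ± 0.09 and −0.39 ± 0.40 in the 7. E2f4 differed by 0.24 ± 0.14 in the 9 and 0.15 ± 0.14 in the 7, and E2f1 by −0.35 ± 0.35 and −0.43 ± 0.44. All 20 proliferation markers had negative differences in both fits, with medians of −0.72 in the 9 libraries and −0.48 in the 7, and none was called. Over all genes tested, 50.9% had negative differences in the 9 libraries and 51.4% in the 7. The 20 markers were measured in the same libraries, so their shared sign is not 20 independent results. The replication genes Mcm4, Mcm6, Mcm3 and Pcna differed by −0.30 ± 0.18, −0.35 ± 0.31, −0.27 ± 0.24 and −0.10 ± 0.26 (SE) in the 9 libraries and by −0.27 ± 0.20, −0.45 ± 0.37, −0.33 ± 0.29 and −0.29 ± 0.27 in the 7. The mean level of the 20 proliferation markers, Mki67 among them, followed the clusters of Mki67 in the 9 libraries. It was 9.78 in YAP-deleted LYT008 and 7.36 to 7.60 in the others labelled YAP-deleted. In control LYT004, LYT005 and LYT014 it was 9.88, 10.26 and 8.67, and in control LYT015 and LYT017 it was 7.50 and 7.42.

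Among the genes that control the inhibitors, p53 and its targets had 13 positive and 12 negative differences of 25 tested in each fit, with medians of 0.02 in the 9 libraries and 0.0048 in the 7 and no call. The DNA damage gene Gadd45a differed by 0.42 ± 0.20 (SE) in the 9 libraries and 0.35 ± 0.15 in the 7, and the death receptor gene Fas by −0.22 ± 0.15 and −0.25 ± 0.13. The antiproliferative gene Btg2 differed by 0.29 ± 0.29 in the 9 and 0.29 ± 0.18 in the 7, and the proapoptotic gene Bbc3 by 0.22 ± 0.17 and 0.21 ± 0.14. Btg2 had its highest levels, like Cdkn1a, in LYT013 (12891 normalised counts) and LYT014 (12380), against 6724 to 7491 in the other libraries labelled YAP-deleted and 4607 to 7939 in the other controls. The list was mixed in this. Bbc3 and Plk3 were likewise highest in LYT013 (162 and 760) and LYT014 (139.6 and 473). Ccng1 and Trp53inp1 were at their lowest in LYT013 (865 and 704), and Phlda3 was at its lowest in LYT014 (880). The 14 Polycomb components, which silence the Cdkn2a locus in dividing cells, had 8 positive and 6 negative differences in each fit (medians 0.01 in the 9 libraries and 0.05 in the 7), with Ring1 at 0.35 ± 0.13, Suz12 at −0.39 ± 0.15 and Cbx7 at 0.20 ± 0.21 (SE) in the 9 and at 0.28 ± 0.11, −0.27 ± 0.12 and 0.30 ± 0.25 in the 7. None was called.

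The 15 FOXO, SMAD, MYC and MIZ1 factors, which include activators and repressors of Cdkn1a, Cdkn1b and Cdkn2b, had 6 positive and 9 negative differences in the 9 libraries (median −0.05) and 10 and 5 in the 7 (median 0.08). Zbtb17, which encodes MIZ1, differed by 0.28 ± 0.11 (SE) in the 9 libraries and 0.30 ± 0.11 in the 7, Klf6 by −0.29 ± 0.14 and −0.37 ± 0.14, and Mxd4 by 0.19 ± 0.14 and 0.24 ± 0.14. Smad3 changed sign, at −0.04 ± 0.21 in the 9 and 0.26 ± 0.11 in the 7. The list held no call. Of the 12 genes for turnover of the inhibitor proteins, 5 were positive and 7 negative in the 9 libraries (median −0.06), and 4 and 8 in the 7 (median −0.05). Skp2, the F-box protein that marks p27 for breakdown, had 108, 109.7, 92.7 and 92.6 normalised counts in LYT006, LYT008, LYT013 and LYT016 of the group labelled YAP-deleted. Control LYT004, LYT005, LYT014, LYT015 and LYT017 had 179, 161, 139.6, 132 and 145. The groups as labelled were without overlap for Skp2, as for 2.84% of all genes. Its difference was −0.41 ± 0.12 (SE, limma adjusted p = 0.649) in the 9 libraries and −0.40 ± 0.12 (limma adjusted p = 0.605) in the 7. Rnf123, a subunit of the cytoplasmic ligase for p27, differed by 0.27 ± 0.11 in the 9 libraries and 0.30 ± 0.12 in the 7, Dtl, which targets p21, by −0.89 ± 0.43 and −0.81 ± 0.53, and Ddb1 by −0.09 ± 0.15 and −0.12 ± 0.15.

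The remaining lists also held no call in either fit. The imprinted growth genes, of which 13 of 16 were tested, had 7 positive and 6 negative differences in the 9 libraries (median 0.02) and 8 and 5 in the 7 (median 0.05). Grb10 differed by −0.32 ± 0.14 (SE) in the 9 libraries and −0.37 ± 0.13 in the 7, Mest by −0.15 ± 0.22 and −0.41 ± 0.19, Igf2 by −0.13 ± 0.38 and −0.61 ± 0.33, and Peg3 by −0.53 ± 0.25 and −0.31 ± 0.17. The 20 secretory and nuclear senescence genes had 8 positive and 12 negative differences (median −0.02) with 9 libraries and 10 of each (median −0.0043) with 7. Among them Cxcl2 differed by 0.03 ± 0.37 in the 9 and 0.27 ± 0.18 in the 7, Igfbp7 by 0.30 ± 0.21 and 0.24 ± 0.21, Plaur by −0.19 ± 0.14 and −0.17 ± 0.15, and Il1b by 0.38 ± 0.24 and 0.26 ± 0.28. The 12 other cell cycle brakes had 7 positive and 5 negative differences (median 0.03) with 9 libraries and 8 and 4 (median 0.20) with 7. Gadd45g differed by −0.05 ± 0.45 in the 9 and −0.54 ± 0.24 in the 7, Tob2 by 0.20 ± 0.13 and 0.26 ± 0.12, Tob1 by 0.24 ± 0.25 and 0.44 ± 0.23, and Trp53inp2 by 0.0033 ± 0.15 and 0.17 ± 0.10.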

How the data were processed

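RNA was sequenced from sorted stellate cells in 9 libraries, 4 labelled YAP-deleted and 5 labelled control, with groups and library codes taken from the sample titles. The submitters' processing notes list bcl2fastq 2.20, kallisto 0.44.0, sleuth and the builds GRCh38, GRCm38 and mm10, with no role or order. The labels' protocols describe a poly-A and a ribosomal depletion preparation without saying which library had which. The table deposited by the authors gave 35024 gene names a variance-stabilised, log2-like value per library, the lowest being 4.96. How these values were made was not given in the sources used here. LYT013 was matched to the column headed LYT013.1.

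Inverting that scale gave whole read counts to within 0.1 for all values above the lowest, and normalised counts are these divided by each library's size factor. A gene was tested if at least 4 of the 9 libraries exceeded the lowest value, with limma 3.58.1 in R 4.3.3 (linear model on group, empirical Bayes with trend, two-sided, Benjamini-Hochberg adjustment at 0.05). Because the deposited values were log2-like, no count model was the main test. Exact permutation tests were run for each member. Alternatives covered filters, scaling, transformation, moderation, weights, covariates and left-out libraries. Named genes were the members, Yap1, Mki67, their cyclin and CDK partners, up to 4 genes with the smallest p of each list in the 7 libraries, and the 3 genes most like each member with a mean above 50 normalised counts. Some genes that this rule names are not reported here. Marker genes and the values of Klf2, Bub1b, Tubg1, Tuba1b, Btg2, Bbc3, Plk3, Ccng1, Trp53inp1 and Phlda3 were picked out after they were seen. Positions and transcript lengths came from GENCODE M21. The procedure was tested on simulated data. The members, lists and tests were chosen with earlier results of these data known.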

Additional observations from a re-analysis of the deposited data

Results flagged for a closer look

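In 18 groups of library values (7 CDK inhibitors, Mki67 and Yap1, each in both groups), 6 held a library whose gap to its nearest neighbour was large against the group's range. Chance marks about 1 in 20 such groups. The 2 for Yap1 repeat the reason for which LYT013 and LYT014 are shown apart, which leaves 4 of 16 groups. Those for Cdkn2a, Cdkn2c and Mki67 all fell on LYT008, so the groups are not independent. Whether 4 of 16 exceeds chance was not tested. Among the libraries labelled YAP-deleted, LYT008 stood apart for Cdkn2a, at 48.5 normalised counts with the next at 6.67 (LYT016), for Cdkn2c, at 1549 with the next at 439 (LYT006), and for Mki67, at 3643 with the next at 160.3 (LYT006). LYT013, labelled YAP-deleted, was apart for Yap1, at 2529.8 with the next at 648 (LYT008). Among the libraries labelled control, LYT014 stood apart for Yap1, at 618 with the next at 2902 (LYT004), and for Cdkn1b, at 1492 with the next at 1877 (LYT004).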

How the results depend on the processing

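No CDK inhibitor passed the threshold under any of the 25 alternatives for the 9 libraries or the 20 for the 7 (lowest limma adjusted p 0.516 and 0.470), and 2 and 1 of the values had an unadjusted p under 0.05. The sign stayed in 162 of 175 and in 112 of 140 values, and none that turned was past the threshold. For the 9 libraries, array weights gave −0.091 for Cdkn1a and 0.075 for Cdkn1b, codes 4 to 8 alone gave −0.032 for Cdkn1a, 0.044 for Cdkn1b and −0.29 for Cdkn2d, the 7 libraries gave 0.012 for Cdkn1b and −0.047 for Cdkn2d, and Mki67 as covariate gave 0.13 for Cdkn2a and 0.34 for Cdkn2c. Codes 13 to 17 alone turned none. For the 7 libraries, Mki67 as covariate gave −0.016, −0.10, 0.11, 0.21 and 0.15 for Cdkn1b, Cdkn1c, Cdkn2a, Cdkn2c and Cdkn2d, the macrophage mean gave −0.066, 0.035, 0.095 and 0.12 for Cdkn1c, Cdkn2a, Cdkn2c and Cdkn2d, and array weights gave 0.079 for Cdkn2d. The Mki67 covariate lays a single slope across separate clusters of libraries, and the cause of the turned signs was not tested. Without 1 library in turn, the 9-library differences ran from −0.021 to 0.46 (Cdkn1a), −0.21 to 0.087 (Cdkn1b), 0.20 to 0.57 (Cdkn1c), −0.48 to −0.071 (Cdkn2a), 0.0039 to 0.14 (Cdkn2b), −0.75 to −0.011 (Cdkn2c) and −0.015 to 0.29 (Cdkn2d). The 7-library differences ran from 0.040 to 0.52 (Cdkn1a), −0.054 to 0.080 (Cdkn1b), −0.15 to 0.32 (Cdkn1c), −0.48 to 0.10 (Cdkn2a), −0.060 to 0.14 (Cdkn2b), −0.80 to 0.15 (Cdkn2c) and −0.29 to 0.18 (Cdkn2d). Genes past the threshold in the 7 libraries numbered 7 with voom, 25 with code set, 35 with Mki67 and 26 with the macrophage mean as covariate, and 2 (without LYT006) to 11 without 1 library. Levels per kb on the shortest transcript were 955, 1036, 485.2, 731 and 485.2 for Cdkn1a, Cdkn1b, Cdkn1c, Cdkn2c and Cdkn2d. No paired analysis was possible because the groups share no replicate numbers. With 4 to 38 Cdkn2a reads and 14 to 56 Cdkn2b reads a library, differences within the counting intervals were not detectable.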
